A study of Homo sapiens with 8 samples.

Results

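The 10 genes described here encode the dual-specificity phosphatases DUSP1, DUSP4, DUSP5, DUSP6, DUSP8 and DUSP10 and the feedback inhibitors SPRY2, SPRY4, SPRED1 and SPRED2. They were taken by symbol through their NCBI Gene IDs, and all 10 were among the 18555 genes of the count table. RNA-seq compared 3 siXBP1 libraries with 3 siNC libraries, both from cells labelled HepG2, a line derived from a human liver tumour. The siXBP1 cells were transfected with an siRNA against XBP1, the transcription factor that the IRE1 arm of the unfolded protein response activates by splicing, and the siNC cells with the Allstar control siRNA. Both groups then received 30 nM thapsigargin for 3 hours, 2 days after transfection. Thapsigargin empties the calcium store of the endoplasmic reticulum and so triggers the unfolded protein response. Every library comes from treated cells, and a response to thapsigargin itself cannot be read from these samples.

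MAP kinases (ERK, JNK and p38) are switched on by phosphorylation of a threonine and a tyrosine in their activation loop. The MAP kinase phosphatases of the DUSP family remove both phosphates, and many of them are induced by the pathway they shut off, which makes their mRNA a common readout of recent MAP kinase activity. Sprouty and SPRED proteins act further up and dampen signalling from receptor tyrosine kinases through RAS and RAF to ERK. In epithelial cells the circuit lies downstream of growth factor receptors such as EGFR.

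Library totals lay between 38209972 and 38890070 counts, and the 10 genes had between 291 and 9067 counts in a library. Levels are given as CPM, a gene's counts scaled to a common library total. CPM compares 1 gene between libraries and, without correction for transcript length, not 1 gene with another. XBP1 itself had 290.0, 299 and 276 CPM in the siXBP1 libraries, against 552, 502 and 499.6 CPM in the siNC libraries. It fell to 55.7% of the siNC mean (log2 fold change -0.84 (SE 0.085), edgeR adjusted p = 0.0331). With 1 library left out it passed the threshold of 0.05 in 2 of 6 edgeR fits, without siXBP1 replicate 3 and without siNC replicate 1, and had an adjusted p of 0.175 to 0.475 without siXBP1 replicate 1 or 2 or siNC replicate 2 or 3. The cell label was not borne out by hepatocyte transcripts. AFP, a fetal serum protein gene that liver tumour lines express, reached 0.155 CPM at most over the 6 libraries, and SERPINA1 averaged 0.173 CPM in siXBP1 and 0.0514 CPM in siNC. Keratins and other genes of further epithelial lines summed to 4177 to 5303 CPM in siXBP1 and 4271 to 5692 CPM in siNC, with 5 of 11 genes at 1 CPM or more. KRT17 and KRT7 carried that sum, with means of 3373 and 1449 CPM in siXBP1 and 3356 and 1496 CPM in siNC, whereas CDH1 (0.380 CPM over the 6 libraries), TP63 (0.644 CPM), EPCAM (0.0257 CPM) and KRT5 (0.0171 CPM) were low. Fibroblast genes, 6 of 7 at 1 CPM or more, summed to 352 to 359 CPM in siXBP1 and 329 to 347 CPM in siNC. These sums did not overlap, but singly 0 of the 6 genes tested had groups that did not overlap, against 8.75% of all genes tested. Estimates were above 0 for 3 of the 6 and below 0 for 3, and COL1A2 was near 0. Leukocyte genes stayed below 1 CPM on average, with a sum of 0.722 to 0.837 CPM in siXBP1 and 0.695 to 1.05 CPM in siNC. The part of these genes in the results below was not tested.

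Of the feedback genes, DUSP5, DUSP6, DUSP10, SPRY2 and SPRY4 had siXBP1 means between 125% and 138% of their siNC means, whereas DUSP1, DUSP4 and SPRED2 lay between 97.3% and 103%. Across the 14337 genes tested, edgeR's quasi-likelihood test called 1 gene (XBP1, 0.00697% of those tested), and it called 0 of the 10 feedback genes. DESeq2 called 0 of them as well, where it called 0.105% of all genes, and limma-voom called 0, against 0.00697% of all genes. At an unadjusted edgeR p under 0.05 there were 5 of the 10, all with higher estimates in siXBP1, against 1.9% of all genes tested that were higher at that level (3.61% in either direction). In CPM the siXBP1 and siNC libraries did not overlap for 4 of the 10, DUSP6, DUSP10, SPRY2 and SPRY4, each higher in siXBP1, against 5.01% of all genes tested (8.75% in either direction). Estimates were above 0 for 9 of 10 (52.8% of all genes tested), with a median log2 fold change of 0.27 over the 10 and 0.0096 over all genes tested. The shares among the 10 genes are thus above the background, but the genes were chosen with earlier results of these data known, which may raise the shares. No test of the group was made. In a bulk sample a change in RNA per cell and a change in which cells are present cannot be told apart.

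**Figure D1:**
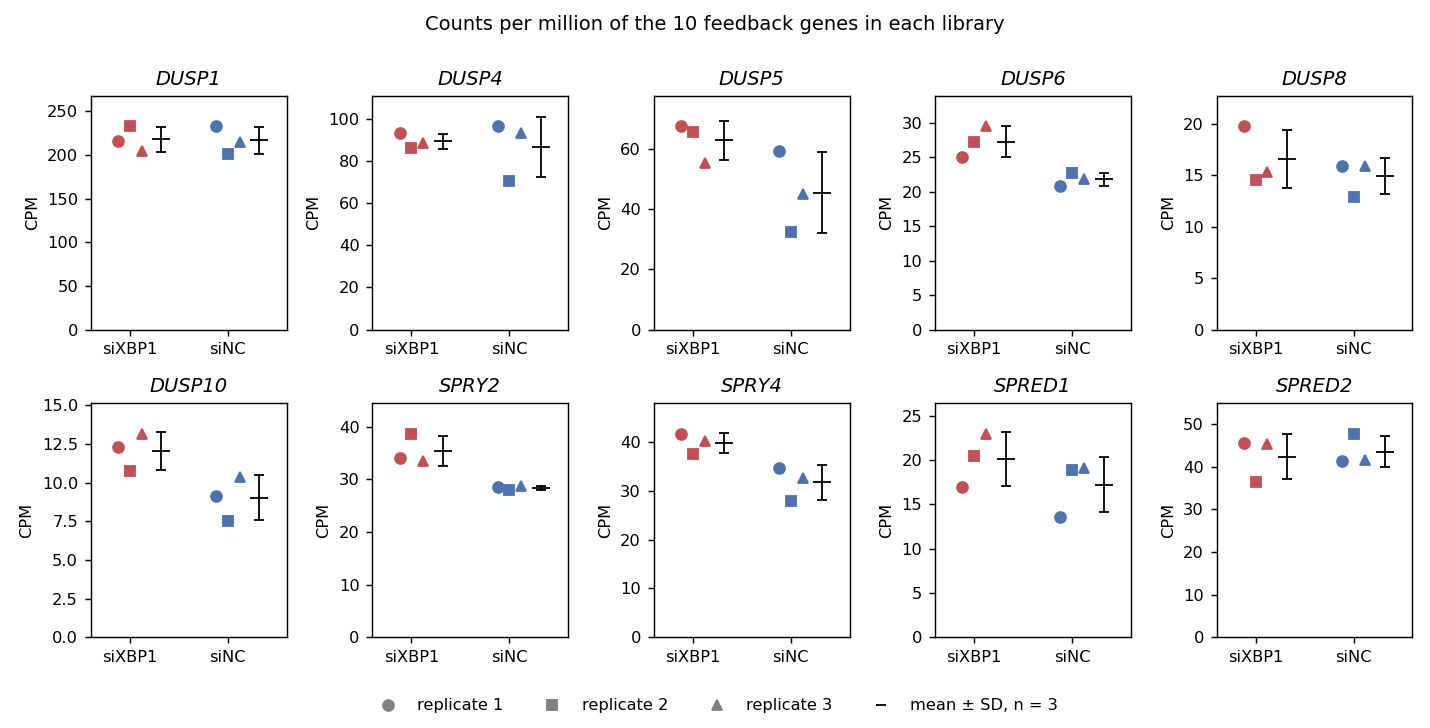
Level of each feedback gene in CPM (vertical axes, starting at 0) in the 3 siXBP1 libraries (red, left) and the 3 siNC libraries (blue, right), with symbols for replicate numbers and the mean ± SD in black. The siXBP1 points of DUSP6, DUSP10, SPRY2 and SPRY4 all lie above their siNC points, while those of DUSP1, DUSP4, DUSP5, DUSP8, SPRED1 and SPRED2 overlap.

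Among the inducible nuclear phosphatases, the estimate was above 0 for DUSP5 and near 0 for DUSP4 and DUSP1, a contrast between genes that was not tested. DUSP5, which acts on ERK in the nucleus (gene ID 1847, chromosome 10, 110497907 to 110511533, GRCh38), had 67.5, 65.4 and 55.4 CPM in the siXBP1 libraries, against 59.2, 32.3 and 44.8 CPM in the siNC libraries. All siXBP1 libraries lay above siNC replicates 2 and 3, but siXBP1 replicate 3 lay below siNC replicate 1, so that the groups overlapped. The means were 62.8 ± 6.45 CPM in siXBP1 and 45.4 ± 13.5 CPM in siNC (SD, n = 3 each). The log2 fold change of 0.47 (SE 0.20) had a 95% interval of 0.030 to 0.91 and did not pass (edgeR adjusted p = 0.9998). DUSP5 also varied most among the siNC libraries, with a coefficient of variation of 10.3% in siXBP1 and 29.6% in siNC. The log2 fold change was 0.26 without siNC replicate 2 and 0.70 without siNC replicate 1, the lowest and highest values among the 6 fits that left out 1 library.

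DUSP4, a nuclear phosphatase with a broad choice of MAP kinases (gene ID 1846), had 93.3, 85.9 and 88.3 CPM in the siXBP1 libraries, against 96.4, 70.3 and 93.1 CPM in the siNC libraries. The siNC library of replicate 2 stood below the other 5 libraries, which lay within 85.9 to 96.4 CPM. The log2 fold change was 0.043 (SE 0.13), with an interval of -0.24 to 0.33 (edgeR adjusted p = 0.9998), and it was -0.094 without siNC replicate 2.

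DUSP1, a classic immediate early gene that acts mainly on p38 and JNK (gene ID 1843, chromosome 5, 172768096 to 172771195), had 216, 233 and 204 CPM in the siXBP1 libraries, against 233, 202 and 215 CPM in the siNC libraries. The groups overlapped almost completely. The means were 218 ± 14.4 CPM in siXBP1 and 217 ± 15.8 CPM in siNC (SD, n = 3 each). The estimate was a log2 fold change of 0.010 (SE 0.097) with an interval of -0.21 to 0.23 (edgeR adjusted p = 0.9998). Its counts, from 7812 to 9067 per library, leave a counting error of about 1.54%, below the coefficients of variation of 6.59% in siXBP1 and 7.28% in siNC.

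The DUSP1 start region is shown because it holds sequences read by factors of the ATF, CREB and bZIP families, to which XBP1 belongs. The window of 300 bases spans the annotated start (chr5:172771146-172771445, minus strand, GRCh38.p14, from RefSeq, written 5′ to 3′ on the gene's strand). Capitals mark matches, on either strand, to the cAMP response element TGACGTCA, to its shorter form TGACG and to the core ACGTG.
DUSP1: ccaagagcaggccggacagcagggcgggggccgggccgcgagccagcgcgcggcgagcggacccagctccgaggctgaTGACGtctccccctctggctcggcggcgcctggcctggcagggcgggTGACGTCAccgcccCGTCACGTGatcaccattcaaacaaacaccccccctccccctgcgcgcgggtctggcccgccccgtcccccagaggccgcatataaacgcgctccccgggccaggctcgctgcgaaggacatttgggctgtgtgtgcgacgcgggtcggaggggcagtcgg
The full element TGACGTCA begins at position -125 relative to the start, and the core ACGTG lies within CACGTG further down. RefSeq gives 12 such windows for 8 of the feedback genes, some of which have several. The core ACGTG was found in 1 of the 12 windows, that of DUSP1, against 21.4% of all 35116 windows of this length. The longer form TGACGTGG, which XBP1s is known to bind, was found in 0 of the 12 windows and in 0.729% of all windows. A match of letters is not evidence of binding, and the 2 ChIP-seq samples were not analysed here.

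DUSP6, the cytoplasmic phosphatase that is selective for ERK (gene ID 1848, chromosome 12, 89347235 to 89352501), is a widely used readout of ERK output. It had 25.0, 27.3 and 29.5 CPM in the siXBP1 libraries, against 20.8, 22.7 and 21.9 CPM in the siNC libraries. Every siXBP1 library lay above every siNC library, and the siNC libraries had a coefficient of variation of 4.24%, below the counting error of about 4.595%, so their closeness is no measure of precision. The means were 27.3 ± 2.25 CPM in siXBP1 and 21.8 ± 0.924 CPM in siNC (SD, n = 3 each). That gave a log2 fold change of 0.32 (SE 0.12) and an interval of 0.065 to 0.58. The unadjusted edgeR p was 0.0195 and the adjusted p 0.9998, so the difference did not pass over all genes. In the 6 fits without 1 library it stayed between 0.25 and 0.38. The annotation places a read-through transcript, POC1B-DUSP6, over this gene, and reads from it cannot be separated here.

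A further pair that prefers JNK and p38, DUSP10 and DUSP8, had unequal estimates with intervals that overlapped, a contrast that was not tested. DUSP10, an inhibitor of both kinases (gene ID 11221, chromosome 1, 221701424 to 221742089), had 12.3, 10.7 and 13.2 CPM in the siXBP1 libraries, against 9.15, 7.49 and 10.4 CPM in the siNC libraries. The lowest siXBP1 library, replicate 2, lay just above the highest siNC library, replicate 3. The means were 12.1 ± 1.24 CPM in siXBP1 and 9.01 ± 1.46 CPM in siNC (SD, n = 3 each). That gave a log2 fold change of 0.42 (SE 0.16) and an interval of 0.064 to 0.78. The unadjusted edgeR p was 0.0254 and the adjusted p 0.9998, which did not pass. This gene had the fewest counts of the 10, 291 to 503 per library, and its estimate stayed between 0.30 and 0.53 with 1 library left out.

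DUSP8, a phosphatase of JNK and p38 best known from brain and heart (gene ID 1850, chromosome 11, 1554051 to 1572848), had 19.8, 14.5 and 15.4 CPM in the siXBP1 libraries, against 15.9, 12.9 and 15.9 CPM in the siNC libraries. Only siXBP1 replicate 1 stood above all siNC libraries, and the other siXBP1 libraries lay within the siNC range. The log2 fold change was 0.15 (SE 0.15) with an interval of -0.20 to 0.50 (edgeR adjusted p = 0.9998), and 0.0078 without siXBP1 replicate 1. KRTAP5-AS1 overlaps DUSP8 in the annotation with 10 to 41 counts per library. The sources used here do not say whether counting used strand, so overlapping reads cannot be told apart. The DUSP8 start region is printed because, with that of DUSP1, it is one of 2 among the 12 windows of the feedback genes that hold the full element TGACGTCA, found in 1.85% of all windows (chr11:1572222-1572521, minus strand; capitals as above).
DUSP8: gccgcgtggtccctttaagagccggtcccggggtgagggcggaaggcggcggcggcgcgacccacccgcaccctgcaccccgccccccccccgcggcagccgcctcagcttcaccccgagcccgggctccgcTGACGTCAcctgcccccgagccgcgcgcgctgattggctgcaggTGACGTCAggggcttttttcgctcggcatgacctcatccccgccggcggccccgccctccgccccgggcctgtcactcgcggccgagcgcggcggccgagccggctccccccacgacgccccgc
The window lies inside the DUSP8 span given above, so its positions count from a start within that span. It holds TGACGTCA in 2 places, beginning at positions -118 and -74. The groups overlapped for both genes with this element, and over all genes tested they stood apart for 8.75%. DUSP4 and DUSP5 have no window, and a link between the element and the levels was not tested.

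SPRY2 and SPRY4 were both higher in every siXBP1 library than in any siNC library. SPRY2, an inhibitor of signalling from growth factor receptors to RAS and ERK (gene ID 10253, chromosome 13, 80335976 to 80341126), had 34.0, 38.7 and 33.6 CPM in the siXBP1 libraries, against 28.6, 28.0 and 28.7 CPM in the siNC libraries. The siNC libraries were nearly alike, with a coefficient of variation of 1.39%, which is below the counting error of about 4.03% at this depth. Their closeness is therefore no measure of precision. The means were 35.4 ± 2.84 CPM in siXBP1 and 28.4 ± 0.394 CPM in siNC (SD, n = 3 each), with a log2 fold change of 0.32 (SE 0.11) and an interval of 0.069 to 0.57. With an unadjusted edgeR p of 0.0176, the smallest of the 10 genes and rank 183 of all genes tested, it had an adjusted p of 0.9998.

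SPRY4, a further ERK-induced inhibitor of the same step (gene ID 81848, chromosome 5, 142310430 to 142325021), had 41.7, 37.5 and 40.3 CPM in the siXBP1 libraries, against 34.8, 27.8 and 32.6 CPM in the siNC libraries. The means were 39.8 ± 2.12 CPM in siXBP1 and 31.7 ± 3.54 CPM in siNC (SD, n = 3 each). That gave a log2 fold change of 0.33 (SE 0.12) and an interval of 0.066 to 0.59. The unadjusted edgeR p was 0.0195 and the adjusted p 0.9998, which did not pass. The lowest siXBP1 value exceeded the highest siNC value, and with 1 library left out the estimate lay between 0.24 and 0.40. The long noncoding SPRY4-IT1 lies within the span of SPRY4, and the counts may include its reads. The Sprouty genes had groups that stood apart, as did DUSP6 and DUSP10, whose windows are not printed. The SPRY4 window lies inside the SPRY4 span given above, around a start within that span. Both Sprouty start regions are shown beside those of DUSP1 and DUSP8 (chr13:80341077-80341376, minus strand, for the most upstream of 3 SPRY2 windows, and chr5:142324198-142324497, minus strand, for SPRY4, capitals as above).
SPRY2: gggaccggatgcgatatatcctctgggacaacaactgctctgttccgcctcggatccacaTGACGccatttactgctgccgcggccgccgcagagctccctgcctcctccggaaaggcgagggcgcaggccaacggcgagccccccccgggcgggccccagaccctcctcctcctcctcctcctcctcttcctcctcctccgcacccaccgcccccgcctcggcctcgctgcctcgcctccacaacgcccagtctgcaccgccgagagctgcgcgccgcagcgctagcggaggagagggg
SPRY4: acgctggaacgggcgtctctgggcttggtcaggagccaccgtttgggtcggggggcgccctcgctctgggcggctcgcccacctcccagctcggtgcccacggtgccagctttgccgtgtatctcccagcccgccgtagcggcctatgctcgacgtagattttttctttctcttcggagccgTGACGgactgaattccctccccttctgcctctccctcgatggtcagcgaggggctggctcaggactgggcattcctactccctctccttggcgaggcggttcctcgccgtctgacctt
Each holds the short form TGACG once and no full element. The short form was found in 6 of the 12 windows of the feedback genes, 1 window in each of 6 genes, and in 24.6% of all windows. Of those genes DUSP10, SPRY2 and SPRY4 had groups that stood apart, while DUSP1, DUSP8 and SPRED2 had groups that overlapped. The windows of DUSP6, whose groups stood apart, and SPRED1, whose groups overlapped, held 0 matches to it. A link between the short form and the levels was not tested. The AP-1 sequence TGANTCA was found in 1 of the 12 windows, 1 of SPRED2 (7.71% of all windows), and the ETS sequence CCGGAAG in 0 of the 12 (10.3% of all windows).

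The SPRED genes did not separate the groups. SPRED1, which brings the RAS inhibitor neurofibromin to the membrane (gene ID 161742, chromosome 15, 38252836 to 38357249), had 16.9, 20.4 and 23.0 CPM in the siXBP1 libraries, against 13.6, 18.9 and 19.1 CPM in the siNC libraries. The single lowest library was siNC replicate 1, and the rest of the libraries mixed. Its log2 fold change of 0.23 (SE 0.17), with an interval of -0.16 to 0.61, did not pass (edgeR adjusted p = 0.9998), and it was 0.081 without siNC replicate 1. SPRED2, which blocks activation of ERK by RAS and RAF (gene ID 200734, chromosome 2, 65307175 to 65432599), had 45.5, 36.4 and 45.3 CPM in the siXBP1 libraries, against 41.3, 47.7 and 41.6 CPM in the siNC libraries. Here siXBP1 replicate 2 was the lowest library and siNC replicate 2 the highest, and SPRED2 alone of the 10 had an estimate below 0 (log2 fold change -0.039 (SE 0.12), interval -0.31 to 0.24, edgeR adjusted p = 0.9998).

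**Figure D2:**
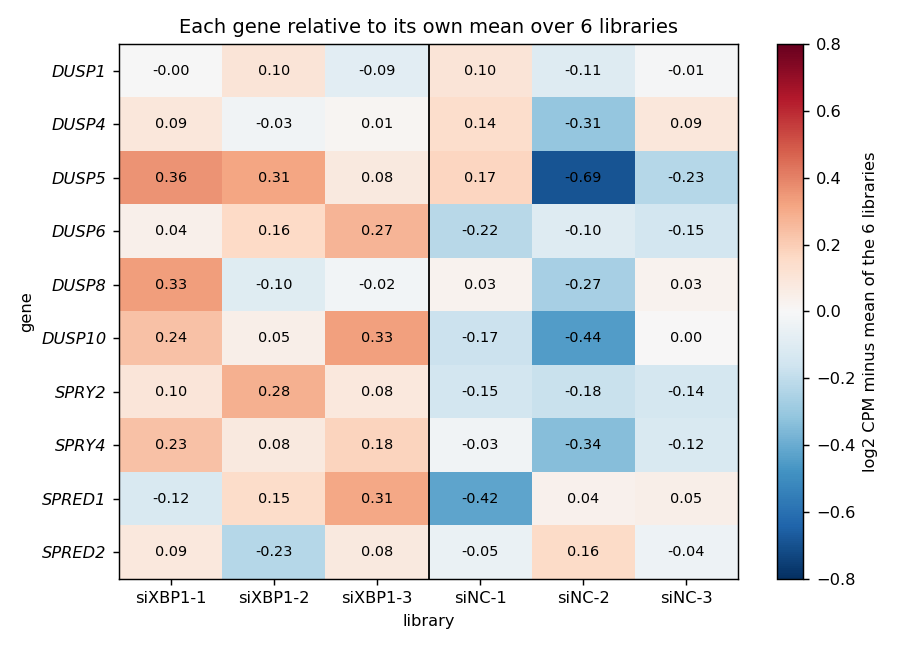
Log2 CPM of each feedback gene minus its mean over the 6 libraries, as colour and number, with siXBP1 libraries left of the black line and siNC libraries right of it. The lowest value, -0.69, is that of DUSP5 in siNC-2, and the highest, 0.36, that of DUSP5 in siXBP1-1.

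Single libraries weighed on several of these values. Of the siNC libraries, replicate 2 was the lowest for 7 of the 10 genes (DUSP1, DUSP4, DUSP5, DUSP8, DUSP10, SPRY2 and SPRY4), against 35.3% of all genes tested. Without it the median log2 fold change over the 10 was 0.25, and with any 1 library left out the median lay between 0.22 and 0.32. DUSP6, DUSP10, SPRY2, SPRY4 and DUSP5 had estimates above 0 in all 6 of these fits, as did DUSP8 and SPRED1. The spread of the 10 genes among replicates ran from 4.24% to 17.0% in siXBP1 and from 1.39% to 29.6% in siNC, where counting alone would give 1.54% to 7.01% if both mates of each read pair were counted.

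**Figure D3:**
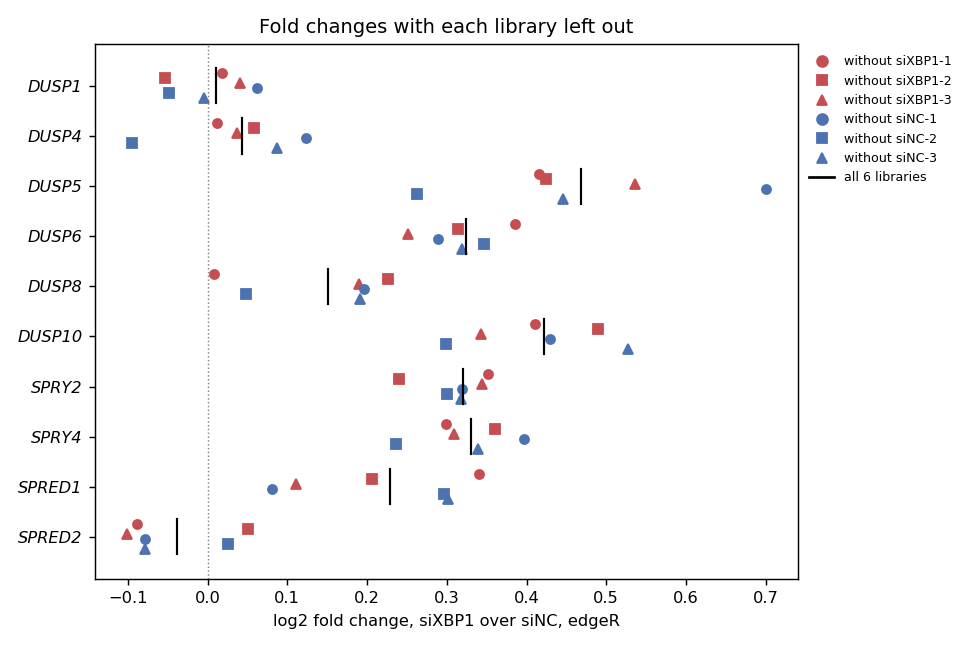
Log2 fold change of siXBP1 over siNC (edgeR, horizontal axis) for each gene with 1 library left out, with colour for the group and symbol for the replicate left out, and black lines for all 6 libraries. Estimates of DUSP5 spread from 0.26 to 0.70, those of DUSP1 from -0.053 to 0.061.

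The main axis of difference among the libraries, the first principal component, took 60.6% of the variance and had siXBP1 replicate 3 (-0.649) and siNC replicate 1 (0.641) at its ends. Within groups DUSP5 had the steepest slope on it of the 10 genes, 0.57 log2 CPM per unit of score, and SPRED1 the most negative, -0.46. With the score as a covariate, 2 of the 10 genes were called as higher in siXBP1, DUSP5 (0.60, SE 0.090, adjusted p = 0.000531) and SPRY4 (0.36, SE 0.085, adjusted p = 0.0313), against 0.732% of all genes tested (1.23% in either direction). SPRY2 (0.33, SE 0.086, adjusted p = 0.0541), DUSP6 (0.29, SE 0.090, adjusted p = 0.123) and DUSP10 (0.41, SE 0.14, adjusted p = 0.192) did not pass in that edgeR fit. The score was computed from the libraries it then corrects and is taken as known, so these SEs may be too small. Leaving out both end libraries, which leaves 2 against 2, called DUSP5 (log2 fold change 0.79, edgeR adjusted p = 2.22e-05) and SPRY4 (0.40, adjusted p = 0.0337). That fit called 1.45% of all genes as higher (4.87% in either direction). The libraries left out were picked by the same score, so this is no separate support for the covariate fit. For DUSP5 they held the highest siNC value (59.2 CPM) and the lowest siXBP1 value (55.4 CPM), so leaving them out widens the difference. For SPRY4, siNC replicate 1 held the highest siNC value (34.8 CPM). No other fit run here called any of the 10. For DUSP5 and SPRY4 the call over all genes thus depends on how the gradient among libraries is treated.

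**Figure D4:**
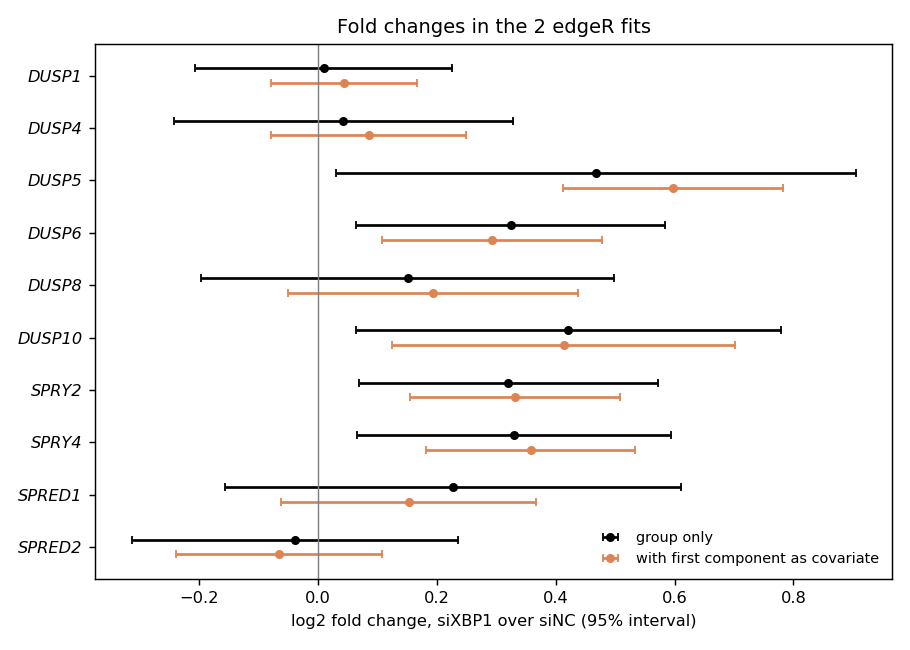
Log2 fold change of siXBP1 over siNC with its 95% interval (horizontal axis) for each feedback gene, from the edgeR fit with group only (black) and with the first component as covariate (orange). The DUSP5 interval narrows to 0.41 to 0.78 with the covariate, against 0.030 to 0.91 with group only.

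Pathway genes outside the 10 had medians nearer 0, apart from the remaining Sprouty and SPRED genes. Of 4 further MAP kinase phosphatases, 0 passed edgeR's test and 0 had an unadjusted p under 0.05 (median log2 fold change -0.0091). DUSP16, which acts on JNK and p38, had 92.4, 78.9 and 92.5 CPM in siXBP1, against 102, 103 and 94.1 CPM in siNC, so that its groups stood apart in the direction opposite to DUSP10, with a log2 fold change of -0.18 (SE 0.099). DUSP2, a nuclear phosphatase known from immune cells, had 0.28 (SE 0.21), and the cytoplasmic ERK phosphatase DUSP7 0.092 (SE 0.11). Of 11 atypical DUSPs, which lack the MAP kinase binding domain, 10 were tested, 0 passed and 0 had an unadjusted p under 0.05 (median 0.074), with log2 fold changes of 0.39 (SE 0.23) for DUSP18, 0.45 (SE 0.28) for DUSP19, 0.025 (SE 0.087) for DUSP3 and -0.069 (SE 0.11) for DUSP12. In CPM the groups stood apart for 1 of the 4 further phosphatases, DUSP16. They did so for 1 of the 10 atypical DUSPs, DUSP19, which was higher in siXBP1. Over all genes tested the share was 8.75%.

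SPRY1, the remaining Sprouty gene that could be tested, had 3.09, 2.17 and 1.91 CPM in siXBP1, against 4.32, 2.70 and 4.10 CPM in siNC. Its log2 fold change was -0.63 (SE 0.27), with the sign opposite to SPRY2 and SPRY4, at an unadjusted edgeR p of 0.0414 and an adjusted p of 0.9998, and the groups overlapped. The difference between SPRY1 and the other Sprouty genes was not tested. SPRED3, at 0.321 CPM in siXBP1 and 0.561 CPM in siNC, had -0.80 (SE 0.62).

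The kinases themselves showed no shift that passed edgeR's test. Of 20 genes of the RAS to ERK cascade 0 passed and 0 had an unadjusted p under 0.05 (median log2 fold change 0.027). The adaptor SHC1 had -0.16 (SE 0.086), the adaptor FRS2 0.29 (SE 0.19) and the phosphatase PTPN11, which promotes RAS activation, 0.061 (SE 0.13). Of 18 genes of the JNK and p38 cascades 17 were tested and 0 passed, and 0 had an unadjusted p under 0.05 (median 0.023). The p38 kinase gene MAPK13 had -0.65 (SE 0.30) at 1.61 CPM in siXBP1 and 2.53 CPM in siNC, the JNK gene MAPK8 0.19 (SE 0.13), the p38 substrate kinase MAPKAPK2 0.018 (SE 0.10) and the p38 activator MAP2K3 0.073 (SE 0.14). Among 10 other inhibitors of RAS and ERK signalling 0 passed and 0 had an unadjusted p under 0.05 (median 0.056), with 0.32 (SE 0.22) for RASA2, -0.14 (SE 0.10) for LRIG1, 0.049 (SE 0.17) for NF1 and 0.11 (SE 0.11) for ERRFI1. In CPM the groups stood apart for 1 of the 20 RAS to ERK genes and for 1 of the 10 inhibitors, LRIG1. Both were lower in siXBP1. The groups stood apart for 0 of the 17 JNK and p38 genes, against 8.75% of all genes tested.

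Transcripts that ERK activity is known to raise gave a mixed picture. Of 14 such genes outside the feedback list 12 were tested, 0 passed edgeR's test, and 2 had an unadjusted p under 0.05, both with higher estimates, against 1.9% of all genes tested that were higher at that level (3.61% in either direction). The median log2 fold change of the 12 was 0.038. PHLDA1, a nuclear protein gene often used as an ERK readout, had 195, 187 and 218 CPM in siXBP1, against 149.9, 138 and 166 CPM in siNC. Its groups stood apart, with a log2 fold change of 0.41 (SE 0.10) and an adjusted p of 0.9998 in edgeR and 0.187 in DESeq2. PHLDA1 was the only 1 of the 12 with groups that stood apart. Over all genes tested, 5.01% stood apart as higher and 8.75% in either direction. EPHA2, an ephrin receptor gene, had 0.22 (SE 0.096), and MYC 0.042 (SE 0.091). With the first component as a covariate, 3 of the 12 were called as higher, PHLDA1, EPHA2 and FOSL1, of which FOSL1 (encoding an AP-1 subunit) is named after its values were seen. Over all genes tested that fit called 0.732% as higher and 1.23% in either direction. With group only, FOSL1 had a log2 fold change of 0.30 (SE 0.15), an unadjusted edgeR p of 0.0738 and groups that overlapped. FOS (-0.075 (SE 0.22)), EGR1 (0.11 (SE 0.18)) and CCND1 (0.018 (SE 0.078)), listed here because they are the best known ERK targets and chosen after their values were seen, had groups that overlapped.

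**Figure D5:**
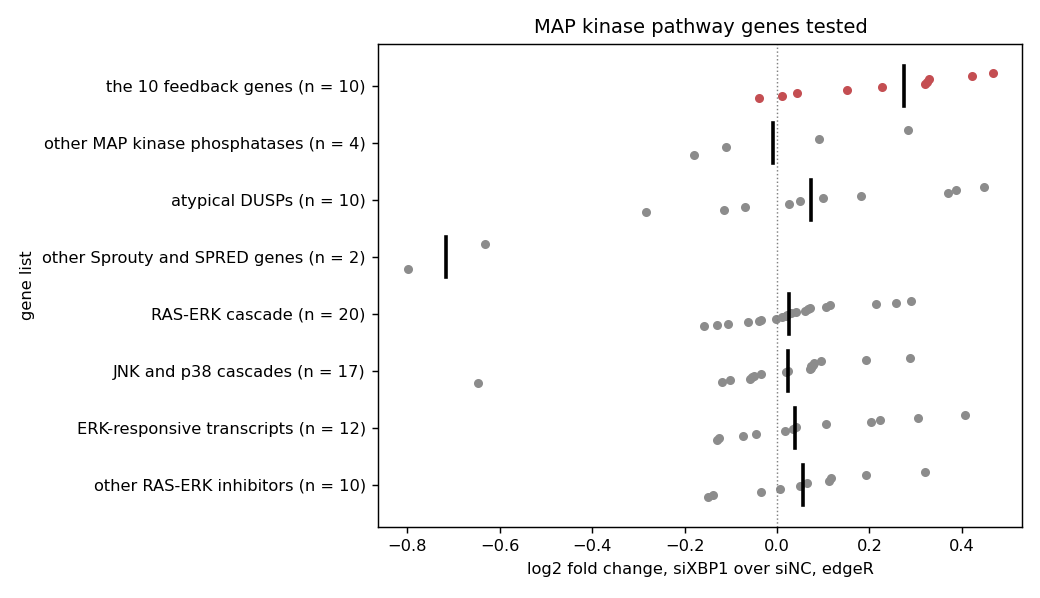
Log2 fold change of siXBP1 over siNC (edgeR, horizontal axis) of each tested gene, as points by gene list, with a black bar at each list's median. The feedback genes (red) have a median of 0.27, and the RAS-ERK cascade one of 0.027.

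Genes whose levels followed SPRY2 most closely over the 6 libraries were sought among 9588 other genes that averaged 10 CPM or more, by the mean absolute difference in centred log2 CPM. The 5 nearest were RPL23AP82 (0.0313), ARHGEF3 (0.0325), ZNF473 (0.0336), USP18 (0.0365) and WTAP (0.0424). RPL23AP82 is a pseudogene and may share reads with its parent gene. WTAP, which encodes a subunit of the complex that methylates adenosines in mRNA, had 190.0 CPM in siXBP1 and 154 CPM in siNC. The 5 genes were chosen for this likeness, so their higher siXBP1 levels are a description and not a result.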

How the data were processed

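Per the labels' protocols, a TruSeq kit that keeps strand was used. STAR 2.5.2a, featureCounts 1.5.0 of Subread and the hg38 build are named in the submitters' processing notes. Which strand setting and gene annotation were used is not given in the sources used here, nor how read pairs were counted. The deposited table holds raw counts per gene made by the authors. NCBI Gene IDs were matched to RefSeq names of GRCh38.p14 for 18526 of 18555 rows; the other 29 held 0.00349% of counts. Between 75.8% and 80.5% of counts from 1 to 40 were even numbers, which would arise if both mates of a pair were counted, so counting errors are given for halved counts. Counting errors cover counting alone, since PCR copies cannot be recognised without molecular identifiers. Replicates were never alike within sampling noise. Nothing says that they came from separate cultures: the p-values reflect how far these samples spread, which may be technical.

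Genes kept by filterByExpr were normalized with TMM and tested with edgeR 4.0.16 (quasi-likelihood, two-sided, group as the only term, R 4.3.3). P-values were adjusted by Benjamini-Hochberg over all genes tested (threshold 0.05), also where 10 genes are read out. The SE is the log2 fold change divided by the square root of F. DESeq2 1.42.0 and limma 3.58.1 served as alternatives. The component was computed on log2(CPM + 0.5) of 11528 genes averaging 100 counts or more. Scripts were first tested on simulated data. The feedback genes, the pathway and marker lists, the motifs and the alternatives were chosen with earlier results of these data known. Named outside the 10 are XBP1 and, as no listed gene was called, the 2 with the smallest p and the 2 with the highest mean CPM per pathway list. The 5 genes nearest to the feedback gene of smallest p are named too, and FOSL1, FOS, EGR1 and CCND1 as stated. One marker result is not reported here. Start regions come from RefSeq, where 8 of the 10 genes have a window.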

Additional observations from a re-analysis of the deposited data

How the results depend on the processing

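Across 16 alternatives (other scalings, filters and tests, a replicate block, the component as covariate, halved counts, and libraries left out), DUSP5, DUSP6, DUSP8, DUSP10, SPRY2 and SPRY4 kept estimates above 0. The number of genes called was 1 in edgeR's main form, 15 with DESeq2, 176 with the component as covariate and 702 without both end libraries, and 0 to 1 with 1 library left out. The feedback genes called were 2 with the covariate, 2 without both end libraries, and 0 in the rest. XBP1 did not pass without siXBP1 replicate 1 or 2 or siNC replicate 2 or 3 (log2 fold change -0.88 to -0.84, edgeR adjusted p 0.175 to 0.475). Signs turned for DUSP1 without siNC replicate 2 (-0.048), siNC replicate 3 (-0.0049) or siXBP1 replicate 2 (-0.053), for DUSP4 without siNC replicate 2 (-0.094), for SPRED2 without siNC replicate 2 (0.026) or siXBP1 replicate 2 (0.050), and for SPRED1 without both end libraries (-0.018). Over all fits that left libraries out, estimates ranged -0.053 to 0.11 for DUSP1, -0.094 to 0.14 for DUSP4, -0.018 to 0.34 for SPRED1 and -0.12 to 0.050 for SPRED2. The causes were not tested. Same-numbered libraries deviated from their group means with correlations of 0.61, -0.38 and 0.45 for replicates 1, 2 and 3, so the numbers are not taken as pairs. With the replicate block edgeR called 1 gene and 0 of the 10, and the smallest adjusted p among the 10 was 0.857 (DUSP5).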
